A study of Homo sapiens with 9 samples.

Results

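Metallothioneins are small, cysteine-rich proteins that bind zinc, copper and cadmium through their cysteine thiols. The 6 metallothionein genes described here, MT2A, MT1E, MT1F, MT1G, MT1M and MT1X, were taken by symbol from a deposited table of 59609 genes, and all 6 symbols were found. RNA came from the human pancreatic cancer line SUIT2, an established cell line, after 6 h or 24 h with human interferon beta (IFNβ) at 100 U/mL, or from control-treated SUIT2 cells. Each of the 3 groups had 3 libraries. The treatment wells received fresh medium carrying IFNβ, and the labels give no time and no vehicle for the controls. The control samples carry the same treatment protocol text as the treated ones, so that only their titles and treatment field mark them as controls. The work rests on 1 cell line. Nothing in the labels tells whether the replicates are different cultures, and the p-values then cover only the variation among these libraries, which may be technical.

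In resting cells metallothioneins hold zinc and copper in exchangeable form, and they take up excess metal and react with oxidants. Their transcription is classically raised by zinc and cadmium through the zinc-sensing factor MTF1, which binds metal response elements in their promoters, and MT2A is also known as an interferon- and glucocorticoid-inducible gene. MT2A is the single gene of its class in humans, whereas the MT1 class is a set of close relatives. The genes lie in 1 cluster, and 15 of the 20 metallothionein genes and pseudogenes of the table lay on chromosome 16 between bases 56565073 and 56684197 of hg38, a span of 119124 bases.

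The coding sequences of MT2A and MT1E, the most abundant member of each class in these cells, are shown because they carry the repeated cysteine codons that define the family and show how alike the counted transcripts are. They are from GENCODE release 29 transcripts, 5′ to 3′, with the in-frame TGC and TGT cysteine codons in capitals.
MT2A: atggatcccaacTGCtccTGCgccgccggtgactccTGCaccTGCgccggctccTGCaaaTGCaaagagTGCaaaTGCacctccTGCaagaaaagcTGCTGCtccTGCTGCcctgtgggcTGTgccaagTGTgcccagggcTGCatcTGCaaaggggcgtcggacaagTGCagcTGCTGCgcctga
MT1E: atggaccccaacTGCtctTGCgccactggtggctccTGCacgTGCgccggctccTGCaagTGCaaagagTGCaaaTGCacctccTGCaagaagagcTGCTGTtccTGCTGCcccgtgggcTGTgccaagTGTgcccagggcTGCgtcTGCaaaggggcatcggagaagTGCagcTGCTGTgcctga

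Each of these holds 61 codons, of which 20 (32.8%) encode cysteine. MT1F, MT1M and MT1X have the same length and the same number of cysteine codons, and MT1G has 20 in 62 codons. Between members the coding sequences were 88.7% (MT1F and MT1X) to 93.7% (MT2A and MT1G) identical, and MT2A and MT1E were 92.5% identical over 186 aligned bases. Over whole transcripts, the share of 50-base stretches that occur without a mismatch in another metallothionein gene or pseudogene was 3.02% for MT2A, 7.10% for MT1E, 1.22% for MT1F, 9.87% for MT1M, 3.64% for MT1X and 16.5% for MT1G. Reads from such stretches may have been split between genes, and neither the strand setting nor the counting rules are stated in the labels or files.

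The 250 bases before the transcription start were available for 2 of the 6 members, MT2A and MT1X (RefSeq, GRCh38.p14). They are printed 5′ to 3′ on the plus strand, with each match to the metal response core (TGCACNC or TGCGCNC, either strand) in capitals. The MT2A window is chr16:56608334-56608583 and the MT1X window is chr16:56682220-56682469.
MT2A promoter: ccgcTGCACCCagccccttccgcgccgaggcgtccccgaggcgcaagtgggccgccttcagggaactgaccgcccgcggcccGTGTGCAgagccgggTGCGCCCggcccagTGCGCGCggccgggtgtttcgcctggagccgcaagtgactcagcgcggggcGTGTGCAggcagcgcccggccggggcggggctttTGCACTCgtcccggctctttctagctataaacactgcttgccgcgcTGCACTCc
MT1X promoter: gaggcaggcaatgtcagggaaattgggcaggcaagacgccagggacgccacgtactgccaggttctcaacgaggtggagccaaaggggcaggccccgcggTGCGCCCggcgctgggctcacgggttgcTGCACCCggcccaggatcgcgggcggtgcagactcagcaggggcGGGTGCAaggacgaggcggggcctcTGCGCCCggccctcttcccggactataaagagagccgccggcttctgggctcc

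The MT2A window held 7 matches to the metal response core and the MT1X window 4. Among 35116 promoter windows of the same length, 24.8% held at least 1 match, 0.37% held at least 4 and 0.0313% held at least 7. Each window had 1 match to the antioxidant core TGACNNNGC, found in 10.9% of windows, and neither held the full glucocorticoid palindrome (AGAACA, 3 bases of any kind, TGTTCT), which 1 window of all held. These letter matches describe the windows and are not evidence of a factor bound there.

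The libraries held 16799278 to 37420457 estimated counts at 6 h, 25270387 to 40384407 at 24 h and 15101734 to 19632741 in controls, and 16964 genes passed the filter on low counts. Levels are CPM, counts scaled to TMM-adjusted library size, and differences were tested with edgeR's quasi-likelihood test, with calls made at an adjusted p (Benjamini-Hochberg, over all tested genes) below 0.05. The interferon-response genes ISG15, IFIT1 and MX1 rose at 6 h, by 5.53, 7.80 and 7.34 on the log2 scale, and at 24 h, by 5.25, 6.08 and 6.26. The 7 epithelial markers summed to 5460 to 5770 CPM at 6 h, 5360 to 5480 at 24 h and 4840 to 4900 in controls. The 17 markers of leukocytes, fibroblasts, endothelium and acinar cells summed to 3.25 to 3.33, 3.94 to 4.45 and 2.45 to 3.36 CPM, and PTPRC, CD3E, DCN and CPA1 were each under 1 count over all libraries. In the first 24 h library the 5.8S ribosomal RNA genes stood at 121 CPM, against 3.15 to 9.60 CPM in the other libraries.

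MT2A, at chromosome 16, bases 56608584 to 56609498 of the plus strand, was the main metallothionein transcript of these cells. It measured 152, 148 and 135 CPM at 6 h, 62.0, 62.1 and 67.3 CPM at 24 h, and 15.8, 18.1 and 20.5 CPM in controls. The 3 groups were fully separate, with the 6 h libraries highest and the 24 h libraries in between. MT2A averaged 145 ± 8.83 CPM at 6 h and 18.1 ± 2.33 CPM in controls (SD, n = 3 each), a 7.98-fold rise (log2 fold change 3.00, SE 0.071, edgeR adjusted p = 1.22e-14). At 24 h it averaged 63.8 ± 3.03 CPM (SD, n = 3), still 3.53-fold above controls (log2 1.82, SE 0.0738, edgeR adjusted p = 1.7e-11). The 24 h level was 2.26-fold below the 6 h level (log2 −1.18, SE 0.055, edgeR adjusted p = 6.96e-11). In bulk RNA, more RNA per cell and more cells of a responding kind cannot be told apart.

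MT1E (bases 56625475 to 56627113, plus strand) encodes an MT1-class metallothionein and was the most abundant MT1 transcript. It measured 11.1, 12.5 and 10.9 CPM at 6 h, 15.99, 15.5 and 17.7 CPM at 24 h, and 5.06, 6.00 and 5.45 CPM in controls. Here too the groups were fully separate, but the 24 h libraries were highest. The rise was 2.07-fold at 6 h (log2 1.05, SE 0.102, edgeR adjusted p = 7.44e-07) and 2.97-fold at 24 h (log2 1.57, SE 0.0938, edgeR adjusted p = 1.75e-09). The 24 h level exceeded the 6 h level by 0.52 on the log2 scale (SE 0.0786, edgeR adjusted p = 4.08e-05).

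MT1M (bases 56632659 to 56633982, plus strand) was scarce in controls. Its level was 2.41, 2.17 and 2.37 CPM at 6 h, 2.83, 2.83 and 3.47 CPM at 24 h, and 0.420, 0.410 and 0.717 CPM in controls, where it rested on 7 to 11 estimated counts per library. Both treated groups lay wholly above the controls. MT1M rose 4.58-fold at 6 h (log2 2.20, SE 0.243, edgeR adjusted p = 3.53e-06) and 6.02-fold at 24 h (log2 2.59, SE 0.227, edgeR adjusted p = 1.47e-07). Between 24 h and 6 h it differed by 0.39 (log2, SE 0.159, edgeR adjusted p = 0.0461), and this call was lost when any 1 of the 6 treated libraries was left out, with DESeq2 (adjusted p = 0.19) and with counts thinned to the smallest library (log2 0.24, adjusted p = 0.371). Its adjusted p ranged over 0.00357 to 0.371 across the alternatives, all of which kept the sign.

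MT1F (bases 56657731 to 56660699, plus strand) and MT1X (bases 56682470 to 56684197, plus strand) had no passing change at 6 h. MT1F measured 0.528, 0.878 and 0.673 CPM at 6 h, 1.53, 1.86 and 2.37 CPM at 24 h, and 0.360, 0.405 and 0.522 CPM in controls. The 6 h values lay just above the controls, whereas all 24 h values were well above both. With 6 to 8.05 estimated counts per control library, the 6 h difference of 0.71 (log2, SE 0.355) had an edgeR adjusted p of 0.147. At 24 h MT1F rose 4.46-fold (log2 2.16, SE 0.296, edgeR adjusted p = 1.97e-05), and it was 1.45 above 6 h (log2, SE 0.251, edgeR adjusted p = 0.000154). MT1X measured 2.00, 2.13 and 2.16 CPM at 6 h, 3.29, 3.44 and 3.56 CPM at 24 h, and 1.83, 1.66 and 1.51 CPM in controls. Its controls were the highest of the scarce MT1 genes, and its 6 h values stood only slightly above them (log2 0.35, SE 0.161, edgeR adjusted p = 0.157). MT1X then rose 2.07-fold at 24 h (log2 1.05, SE 0.145, edgeR adjusted p = 2.18e-05), with a 24 h level 0.70 above that at 6 h (log2, SE 0.132, edgeR adjusted p = 0.000303). The table lists a long noncoding gene, AC026461.1, over MT1X on the same strand, with 0 counts in all 9 libraries.

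MT1G (bases 56666730 to 56668066, minus strand) was listed at 0 in all 9 libraries. A count of 0 allows up to 3 counts, or 0.0743 to 0.199 CPM by library, counting error only, so MT1G was not detectable at this depth and no fold is given.

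**Figure D1:**
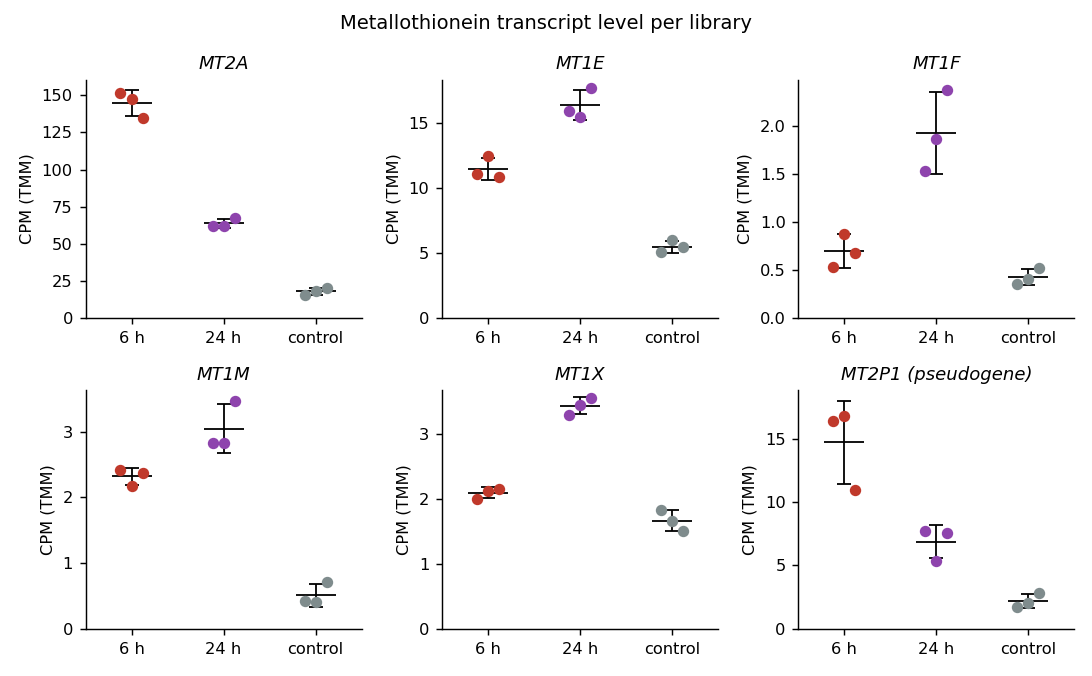
CPM (TMM-scaled, linear axes from 0) of the 5 detected metallothionein genes and of the pseudogene MT2P1 in each library at 6 h and 24 h of IFNβ and in controls; points are libraries, long bars means and whiskers SD (n = 3). MT2A and MT2P1 are highest at 6 h, MT2A with 152, 148 and 135 CPM there, whereas MT1E, MT1F, MT1M and MT1X are highest at 24 h.

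Of the 6 members 5 were tested. At 6 h 3 of them rose (MT2A, MT1E and MT1M), none fell and 2 did not pass, against 32.9% of all tested genes called (17.5% higher, 15.4% lower). At 24 h all 5 tested members rose, against 50.0% of genes called (24.7% higher, 25.3% lower). Between 24 h and 6 h, 4 were higher at 24 h (MT1E, MT1F, MT1M and MT1X) and 1 was lower (MT2A), against 57.2% of genes called (26.6% higher, 30.6% lower). Of these calls, that of MT1M held under only 9 of 19 alternatives. The members' median log2 fold change was 1.05 at 6 h, 1.82 at 24 h and 0.52 between 24 h and 6 h, beside medians of −0.00532, 0.0048 and −0.0186 over all tested genes. MT1F and MT1M had at most 11 estimated counts in a control library and passed the filter through the treated libraries, so a low level with no rise would not have been tested. The comparisons with control share the control libraries, and the direction of change from 6 h to 24 h rests on the treated libraries alone.

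**Figure D2:**
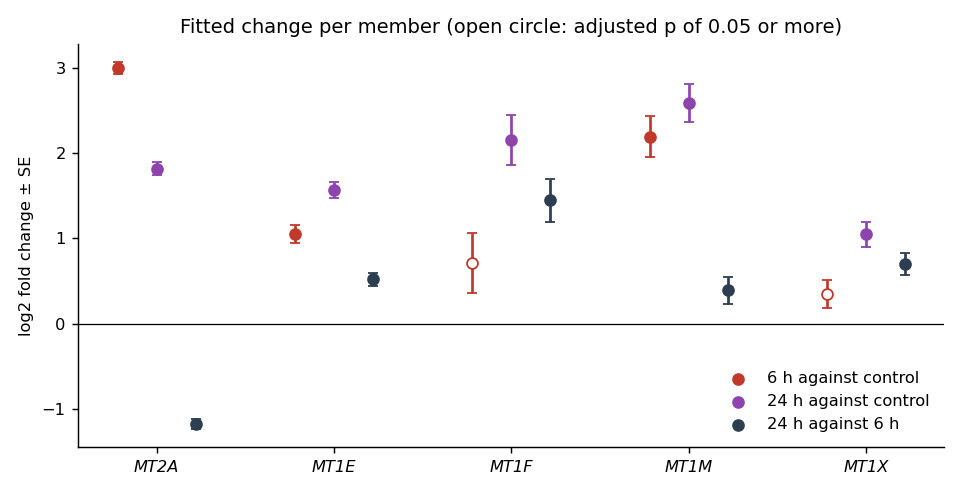
Fitted log2 fold change with its SE for the 5 tested members in the comparisons of 6 h with control, 24 h with control and 24 h with 6 h; filled circles passed the adjusted p threshold of 0.05 and open circles did not. MT2A is the one member whose 24 h against 6 h value is below 0, at −1.18, while MT1F and MT1X have open circles at 6 h.

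The metallothionein pool changed its make-up between the times. The summed CPM of the 6 members was 168, 165 and 151 at 6 h, 85.7, 85.7 and 94.4 at 24 h, and 23.5, 26.5 and 28.7 in controls. The means were thus 6.15 and 3.38 times the control mean at 6 h and 24 h. The MT1 members alone summed to 16.02, 17.7 and 16.1 CPM at 6 h, 23.6, 23.6 and 27.1 CPM at 24 h, and 7.67, 8.48 and 8.20 CPM in controls, so that their sum was highest at 24 h while the whole pool was highest at 6 h. MT2A made up 89.7% ± 0.653 of the pool at 6 h, 72.0% ± 0.662 at 24 h and 68.9% ± 2.18 in controls (SD, n = 3 each). The 24 h libraries (72.4%, 72.4% and 71.3%) overlapped the controls (67.3%, 68.1% and 71.4%) in this share.

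The log2 ratio of MT1E to MT2A, which no library scaling can move, was −3.78, −3.56 and −3.63 at 6 h, −1.95, −2.00 and −1.92 at 24 h, and −1.64, −1.59 and −1.91 in controls. The 6 h libraries stood far below the others, and the 24 h libraries lay just below the lowest control. The mean ratio differed from control by −1.94 at 6 h and by −0.246 at 24 h, and 24 h differed from 6 h by 1.70. Each difference had a two-sided exact permutation p of 0.1, the smallest that 3 against 3 libraries can give, so this test cannot pass 0.05.

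**Figure D3:**
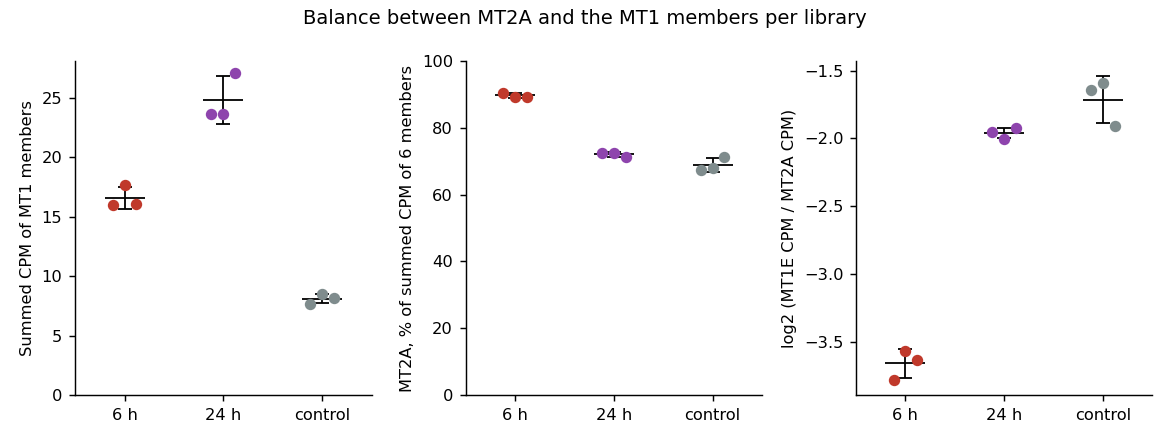
Summed CPM of the MT1 members, MT2A as a percentage of the summed CPM of the 6 members, and the log2 ratio of MT1E to MT2A, per library at 6 h and 24 h of IFNβ and in controls; points are libraries, long bars means and whiskers SD (n = 3). The MT1 sum is highest at 24 h, and MT2A takes 89.7% of the pool at 6 h, against 68.9% in controls.

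Per transcript length, MT2A stood at 184 CPM per kb at 6 h, 81.2 at 24 h and 23.1 in controls, on the longest GENCODE coding transcript of each gene. MT1E followed with 15.8, 22.5 and 7.55 CPM per kb, then MT1X with 3.89, 6.38 and 3.09, MT1M with 2.80, 3.67 and 0.622, and MT1F with 1.00, 2.78 and 0.621. The order MT2A, MT1E, MT1X, MT1M, MT1F held in the means of all 3 groups. MT1M and MT1F overlapped in controls and at 24 h, where single libraries spanned 3.42 to 4.19 CPM per kb for MT1M and 2.21 to 3.44 for MT1F, and they were separate at 6 h. The listed starts of MT2A, MT1M, MT1F and MT1X lie inside their GENCODE genes, so their levels per kb depend on the transcript chosen. The order of the scarce MT1 genes may depend on it too.

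Over the 9 libraries, the log2 CPM of MT2A had Pearson r of 0.848 with MT1M, 0.743 with MT1E, 0.414 with MT1X and 0.398 with MT1F, whereas pairs of MT1 genes ranged from 0.792 (MT1M and MT1X) to 0.957 (MT1E and MT1M). These r values describe 3 groups of 3 libraries that share their treatment. Among 2807 other genes with a mean of at least 5 CPM and group means at least 0.5 apart (log2), the 5 most like MT2A by r were HERC5 (0.9987), SP110 (0.9986), ADAR (0.9985), RSAD2 (0.9983) and ETV7 (0.9983). Like MT2A, all 5 had their highest mean at 6 h: HERC5 averaged 161 CPM at 6 h, 26.1 CPM at 24 h and 1.49 CPM in controls.

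Of the 14 other metallothionein genes and pseudogenes in the table, 3 passed the filter. The processed pseudogene MT2P1 (chromosome 4, bases 68376323 to 68376506), a copy of MT2A, measured 16.4, 16.8 and 10.9 CPM at 6 h, 7.71, 5.37 and 7.57 CPM at 24 h, and 1.75, 2.04 and 2.79 CPM in controls. It followed MT2A, with log2 fold changes of 2.74 at 6 h (SE 0.221, edgeR adjusted p = 8.94e-08), 1.69 at 24 h (SE 0.231, edgeR adjusted p = 1.96e-05) and −1.05 between 24 h and 6 h (SE 0.164, edgeR adjusted p = 5.53e-05). Its counts were 10.1% ± 1.75 of those of MT2A at 6 h, 10.8% ± 1.94 at 24 h and 12.0% ± 1.41 in controls (SD, n = 3 each), and 14.9% of its 50-base stretches occur in MT2A. Reads of MT2A assigned to MT2P1 cannot be told apart from MT2P1 transcripts here. With such pseudogene counts added to their closest gene, an alternative chosen after seeing the data, MT2A changed by 2.97 at 6 h, 1.81 at 24 h and −1.17 between 24 h and 6 h on the log2 scale.

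MT1A, an MT1 gene that is not among the 6, averaged 0.575 CPM at 6 h, 0.940 CPM at 24 h and 0.592 CPM in controls. It did not pass at 6 h (log2 −0.11, edgeR adjusted p = 0.857) or at 24 h (log2 0.65, edgeR adjusted p = 0.0917). Its 24 h against 6 h difference of 0.76 (log2, SE 0.292, edgeR adjusted p = 0.0374) was lost with DESeq2 (adjusted p = 0.158), without the low-count filter (0.0626), with the replicate block (0.0579), and without 6 h library 2 (0.078) or 3 (0.147) or 24 h library 3 (0.194). The pseudogene MT1P3 shares 54.7% of its 50-base stretches with other metallothionein genes or pseudogenes, and 31.2% with the pseudogene MT1JP. It held 11.1 to 14.8 estimated counts per control library and rose at 24 h (log2 1.16, edgeR adjusted p = 0.00162). Reads of other metallothionein genes assigned to MT1P3 cannot be told apart from MT1P3 transcripts here. Its 6 h value was 0.65 (log2, edgeR adjusted p = 0.0992), and without 6 h library 3 it was 0.88 (adjusted p = 0.0307). MT1B, MT1CP, MT3 and MT4 were listed at 0 in all libraries, and the other genes had too few counts to test. Over all 20 genes and pseudogenes the summed CPM was 178 ± 13.0 at 6 h, 98.7 ± 5.66 at 24 h and 29.9 ± 3.19 in controls (SD, n = 3 each).

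Among genes that sense or move zinc and copper the changes went in both directions and most were small. Of 8 tested genes for the zinc sensor and exporters, 3 rose, 1 fell and 4 did not pass at 6 h (median log2 −0.01), and 2 rose, 2 fell and 4 did not pass at 24 h (median −0.014). Beside this list and those that follow, 32.9% of all tested genes were called at 6 h (17.5% higher, 15.4% lower). At 24 h 50.0% were called (24.7% higher, 25.3% lower). MTF1, singled out after its values were seen because it encodes the sensor, measured 61.8, 57.9 and 61.6 CPM at 6 h, 51.1, 51.2 and 52.6 CPM at 24 h, and 51.6, 50.4 and 51.4 CPM in controls. It was higher at 6 h by 0.24 (log2, SE 0.0396, edgeR adjusted p = 0.000192) and 0.01 above control at 24 h (edgeR adjusted p = 0.777). On the deposited normalized table, whose all-gene median was itself 0.134 at 6 h and 0.371 at 24 h, MTF1 was 0.40 above control at 6 h (limma adjusted p = 0.112) and 0.44 above at 24 h (limma adjusted p = 0.0175). SLC30A4, a zinc exporter of intracellular vesicles, averaged 12.9 CPM at 6 h and 5.16 CPM in controls (log2 1.33, edgeR adjusted p = 1.39e-06), and 5.22 CPM at 24 h. SLC30A10, named for its family although it is known as a manganese exporter, averaged 1.45 CPM at 24 h and 0.475 CPM in controls (log2 1.59, SE 0.386, edgeR adjusted p = 0.00296). At 6 h it averaged 0.185 CPM and did not pass (log2 −1.12, SE 0.546, edgeR adjusted p = 0.135), whereas without 6 h library 3 it was called lower (log2 −2.49, edgeR adjusted p = 0.0101). SLC30A1, the zinc exporter of the plasma membrane and a classical MTF1 target, was named outside the rule and rose at 24 h by 0.20 (log2, edgeR adjusted p = 0.000802), with 0.01 at 6 h (edgeR adjusted p = 0.915; −0.13 and called lower with library size alone).

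Of 11 tested zinc importers, 2 rose, none fell and 9 did not pass at 6 h (median log2 −0.008), and 3 rose, 4 fell and 4 did not pass at 24 h (median −0.117). SLC39A10, a plasma membrane zinc importer, had the largest change of the list: 21.4, 22.4 and 21.6 CPM at 24 h, against 49.6, 50.9 and 47.9 CPM in controls (log2 −1.19, SE 0.0471, edgeR adjusted p = 1.28e-11). At 6 h SLC39A10 did not pass (log2 −0.04, edgeR adjusted p = 0.57), although it was called lower with library size alone (log2 −0.18, edgeR adjusted p = 0.0041). SLC39A11, a zinc importer, was 0.27 higher at 24 h (log2, edgeR adjusted p = 0.0126; lost without control library 2 at 0.0773) and did not pass at 6 h (log2 0.16, edgeR adjusted p = 0.196).

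All 11 copper-handling genes were tested: 3 rose, 1 fell and 7 did not pass at 6 h (median log2 0.076), and 4 rose, none fell and 7 did not pass at 24 h (median −0.005). SCO2, which delivers copper to cytochrome c oxidase, averaged 52.1 CPM at 6 h, 33.2 CPM at 24 h and 27.6 CPM in controls (log2 0.92 at 6 h, edgeR adjusted p = 1.91e-08; log2 0.27 at 24 h, edgeR adjusted p = 0.00276). SCO2 overlaps TYMP, and reads of their shared sequence may belong to either gene. ATP7B, a copper-exporting pump, was lower at 6 h (log2 −0.27, edgeR adjusted p = 0.00526; lost on the deposited normalized table at limma adjusted p = 0.762) and higher at 24 h (log2 0.37, edgeR adjusted p = 0.000103).

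All 13 oxidant and glutathione genes were tested: 3 rose, 6 fell and 4 did not pass at 6 h (median log2 0.06), and 1 rose, 7 fell and 5 did not pass at 24 h (median −0.079). SLC7A11, the cystine importer that supplies cysteine for glutathione, measured 24.3, 22.4 and 26.6 CPM at 6 h, 14.8, 15.8 and 13.7 CPM at 24 h, and 34.0, 34.0 and 34.0 CPM in controls. It fell by 0.47 at 6 h (log2, edgeR adjusted p = 4.85e-05, lost on the deposited normalized table at limma adjusted p = 0.315) and by 1.21 at 24 h (edgeR adjusted p = 7.33e-10). HMOX1, the haem oxygenase that many metals and oxidants induce, averaged 1.12 CPM at 6 h, 2.48 CPM at 24 h and 2.28 CPM in controls, with log2 fold changes of −1.02 at 6 h (edgeR adjusted p = 0.000607) and 0.12 at 24 h (edgeR adjusted p = 0.553; 0.39 with limma adjusted p = 0.0335 on the deposited normalized table).

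Of 7 tested genes of the glucocorticoid receptor and its targets, 2 rose, 3 fell and 2 did not pass at 6 h (median log2 −0.078), and 3 rose, 2 fell and 2 did not pass at 24 h (median 0.239). PER1, a clock gene with glucocorticoid response elements, measured 5.26, 5.13 and 4.62 CPM at 6 h, 9.85, 9.70 and 10.2 CPM at 24 h, and 9.29, 8.11 and 7.37 CPM in controls. Its log2 fold change was −0.74 at 6 h (edgeR adjusted p = 6.15e-05) and 0.26 at 24 h (edgeR adjusted p = 0.0317). The 6 h call of PER1 was lost on the deposited normalized table (limma adjusted p = 0.0641), and the 24 h call with DESeq2 (adjusted p = 0.104), without control library 2 (0.0977) or 3 (0.142) and without any 1 of the 24 h libraries (0.0581, 0.0528 and 0.0855). SGK1, a kinase induced by glucocorticoids, was 0.65 higher at 24 h (log2, edgeR adjusted p = 0.00199). At 6 h it was 0.55 higher (edgeR adjusted p = 0.0129), a call lost with DESeq2 (adjusted p = 0.0579) and without control library 2 (0.0728). Calls on changes this small moved with the scaling: with library size alone, the all-gene medians were −0.145 at 6 h and 0.0821 at 24 h, and the list of oxidant and glutathione genes had 0 higher and 7 lower at 6 h.

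**Figure D4:**
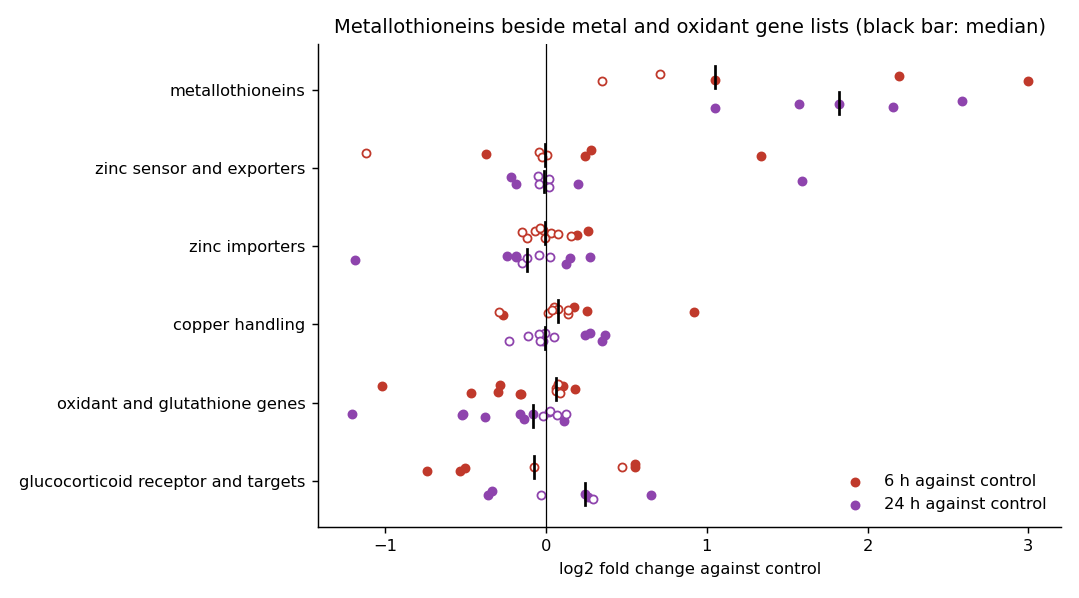
Log2 fold change against control at 6 h and 24 h of each tested metallothionein and of the tested genes of 5 gene lists, 1 row per list; filled points passed the adjusted p threshold of 0.05, open points did not, and black bars are medians. The metallothionein medians are 1.05 at 6 h and 1.82 at 24 h, while the medians of the other lists lie between −0.117 and 0.239.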

How the data were processed

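Total RNA of 9 SUIT2 samples was sequenced. The submitters' processing notes name STAR 2.7.8a, Partek and hg38; no annotation release, strand setting or counting rule is stated in the labels or files. The authors deposited estimated counts per gene, of which 52.7% above 0.5 were whole (within 1e-06). They also deposited a normalized signal table with 1 multiplier per library, as checked against the counts. At 6 h the multipliers were 0.0503, 0.0476 and 0.0337 for libraries of 16799278, 23447549 and 37420457 counts. These replicates were therefore not brought to a common total, and whether calls lost on that table reflect this was not tested. The estimated counts were rounded, a step the planned count test did not foresee. Groups and replicate numbers came from the titles.

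Tests used edgeR 4.0.16 (R 4.3.3), 1 model of 9 libraries with TMM factors, 6 residual degrees of freedom, a minimum count of 10 and total of 15, and a biological coefficient of variation of 0.0392. The SE of a log2 fold change is its size over the root of the F statistic. Fits were tested on simulated data. Alternatives were DESeq2 1.42.0, median-of-ratios and library-size scaling, no low-count filter, fits of 2 groups, a block for replicate number, leaving out each library, and limma 3.58.1 on the deposited signal with pseudocounts of 1 and 0.1. Thinning and adding pseudogene counts were chosen after seeing the data. All members are named, and of each list the 2 genes that passed with the largest change at either time against control; MTF1, SLC30A1 and NLRC5 were added. The members and lists were chosen with earlier results of these data known. Some promoter motif results are not reported here. Promoters came from RefSeq and coding sequences from GENCODE; coordinates are the deposited ones, 1-based.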

Additional observations from a re-analysis of the deposited data

Results flagged for a closer look

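The level of each of the 5 tested metallothioneins was called different between 24 h and 6 h of IFNβ. The log2 fold change against control at 24 h minus that at 6 h was −1.176 for MT2A (edgeR adjusted p = 6.96e-11), below 0. It was above 0 for the MT1 genes: 0.519 for MT1E (4.08e-05), 1.446 for MT1F (0.000154), 0.393 for MT1M (0.0461) and 0.702 for MT1X (0.000303). The controls cancel in this difference, so the test is that of 24 h against 6 h. No control has a stated time, so a change in the effect of IFNβ and a change with time in culture cannot be told apart. All 3 libraries at 24 h lay on the stated side of all 3 at 6 h for each gene. The share of all tested genes with such separation was not counted, so whether it is particular to metallothioneins cannot be told. By edgeR call, 57.2% of all tested genes differed between the times. The value for MT1M did not hold under 10 of 19 alternatives.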

How the results depend on the processing

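The 15 log2 fold changes of the 5 tested members had 284 values under 19 alternatives; 274 kept direction and call, 0 reversed, and the other 10 were all MT1M at 24 h against 6 h. That value (0.393) lost its call with DESeq2 at 0.403, without the low-count filter at 0.394, on the deposited table with a pseudocount of 0.1 at 0.637 and with thinned counts at 0.241, and 0.284 to 0.447 was its range with 1 library left out; the cause was not tested. MT1F at 6 h was not tested with 2 groups per fit. All genes called numbered 1826 and 1854 at 6 h on the deposited table with pseudocounts of 1 and 0.1 (5576 in the counts), and 5849 and 5636 at 24 h against 6 h (9704). There 88.4% and 83.3% of calls were higher with a pseudocount of 1, against 53.2% and 46.6% in the counts, and 96.4% against 49.5% at 24 h against control; with library size alone 21.2%, 76.9% and 64.1% were. On the log2(value + 1) scale of that table the changes of scarce genes were smaller, with MT1M at 1.182 at 6 h and 1.667 at 24 h and MT1F at 1.24 at 24 h. The deviations of each gene's log2 CPM from its group mean correlated at −0.106 to 0.0373 between same-numbered libraries of different groups. These low values give no sign of pairing by number, but 3 libraries per group cannot exclude it. With the replicate block 3, 5 and 4 members were called higher and 0, 0 and 1 lower, as without it. In all, 5149, 8133 and 9393 genes were called with the block. In controls MT1F and MT1M rest on few counts and MT1G on none.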

Other observations

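Of 40 genes within 500000 bases of the metallothionein cluster, 9 were tested: 3 rose, none fell and 6 did not pass at 6 h (median log2 0.056), and 3 rose, 3 fell and 3 did not pass at 24 h (median 0.043). Of all tested genes 32.9% were called at 6 h (17.5% higher, 15.4% lower) and 50.0% at 24 h (24.7% higher, 25.3% lower). The nearest called gene on the side of lower coordinates was BBS2, a cilium gene 44985 bases away, which rose by 0.63 at 24 h (log2, edgeR adjusted p = 3.13e-07) and had −0.09 at 6 h (edgeR adjusted p = 0.367). On the other side NUP93, a nuclear pore gene 45921 bases away, had 0.13 at 6 h (edgeR adjusted p = 0.02) and −0.11 at 24 h (edgeR adjusted p = 0.0334). Both values of NUP93 lost their call with library size alone (log2 −0.01 and −0.03), and the 24 h value was 0.32 and not called on the deposited normalized table. NLRC5, the class I antigen presentation regulator 305288 bases away, was singled out after its values were seen: it rose by 5.47 at 6 h (edgeR adjusted p = 1.32e-18) and by 3.10 at 24 h (edgeR adjusted p = 1.54e-14), more than any metallothionein at either time.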
